A study of Mus musculus with 47 samples.

Results

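The retinol dehydrogenase family was followed through 6 genes, Rdh18-ps, Rdh7, Rdh9, Rdh16, Rdh11 and Rdh12, in the livers of mice that were treated with sunscreens, ultraviolet radiation (UVR), both or neither. A member was taken as the probeset whose platform gene symbol was 1 of these 6 names, and the brightest was to be kept where a symbol had several. Each symbol had 1 probeset, so the 6 genes were 6 of the 9815 non-control probesets tested. The study's methods name more gene transcripts for this array. Shares of all transcripts, adjusted p-values and ranks among genes therefore refer to these 9815 and not to the whole array. The animals were SKH:QS mice, a hairless, albino and immune-competent strain, all female, and each array held the liver RNA of 1 mouse. Groups were Control (no sunscreen), ZnO (a product with ZnO nanoparticles), TiO2 (a product that combined TiO2 nanoparticles with organic UVR filters) and Organic (a product with organic UVR filters only). Each was run without (-UVR) and with (+ UVR) exposure to 29 kJ/m2 per treatment. All mice, the controls included, wore collars and were washed at each of 30 weekly treatments, and livers were taken at week 36. There were 6 arrays in each group and 5 in ZnO + UVR, 47 in all. The labels describe individual housing whereas the study's methods describe 1 cage per group, and if the methods hold, an effect of the shared cage cannot be told apart from the treatment.

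Retinol dehydrogenases are microsomal enzymes of the short-chain dehydrogenase/reductase superfamily. They oxidise retinol to retinaldehyde, the first and reversible step towards retinoic acid, or run the reverse reaction, and several of them also act on steroids. The liver takes up dietary vitamin A into hepatocytes and stores it as retinyl esters in stellate cells. In the mouse, many genes of the oxidising type lie side by side on chromosome 10, and Rdh11 and Rdh12, which encode reductases of retinaldehyde, are neighbours on chromosome 12. In bulk liver RNA, fewer cells of a type and less RNA per cell cannot be told apart.

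On GRCm38.p6 the chromosome 10 members were Rdh9 (chr10:127776405-127792697), Rdh16 (chr10:127801090-127815846), Rdh18-ps (chr10:127824216-127846565) and Rdh7 (chr10:127884027-127889247). Rdh18-ps is annotated as a transcribed pseudogene and the other 5 as protein-coding genes. Rdh11 (chr12:79174233-79191855) and Rdh12 (chr12:79208913-79222664) are adjacent. RefSeq promoter windows were matched for 5 of the 6 members and gave 7 annotated starts, since Rdh7 and Rdh11 have more than 1. Among all pairs of windows of different members, that of Rdh9 aligned best with that of Rdh16, with 202 identical bases in 266 aligned columns (75.9%). The windows of these neighbours, whose levels also moved together from mouse to mouse, are printed as the 250 bases before the annotated start, on the plus strand at chr10:127776155-127776404 and chr10:127800903-127801152. The start used for the Rdh16 window lies downstream of the first base of the gene, chr10:127801090. The end of that window therefore lies within the annotated gene. Capitals mark runs of 8 or more aligned bases that are the same in both.
Rdh9: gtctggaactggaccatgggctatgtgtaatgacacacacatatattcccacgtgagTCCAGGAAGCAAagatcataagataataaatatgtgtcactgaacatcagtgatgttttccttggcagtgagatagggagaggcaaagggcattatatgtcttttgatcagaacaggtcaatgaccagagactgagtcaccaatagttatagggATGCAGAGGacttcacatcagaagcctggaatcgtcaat
Rdh16: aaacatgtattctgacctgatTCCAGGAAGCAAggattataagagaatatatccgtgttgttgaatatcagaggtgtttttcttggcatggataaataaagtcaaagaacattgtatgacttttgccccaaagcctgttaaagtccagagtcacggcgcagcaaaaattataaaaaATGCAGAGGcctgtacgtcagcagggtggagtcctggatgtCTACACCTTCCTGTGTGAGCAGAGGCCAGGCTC
The longest shared run, 43 bases, begins inside the printed stretch of Rdh16 and lies beyond the annotated start of Rdh9, which is why its letters are in capitals in Rdh16 alone. This run lies within the annotated gene in both members. The window of the downstream start of Rdh7 aligned with that of Rdh9 over 145 columns (79.3% identical), whereas windows of the chromosome 10 and chromosome 12 members aligned over 19 columns or fewer.

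The E-box and D-box, which are linked to the circadian clock, were looked for because the level of Rdh9 moved with clock genes. The nuclear receptor half-site, which is not particular to the clock, was searched as well, by its letters alone. Both strands of the same 250 bases were read. The E-box CACGTG was present in 6.02% of the 32851 mouse promoter windows, the D-box TTATGTAA in 0.819% and the nuclear receptor half-site AGGTCA in 14%. None of the 3 motifs overlaps another in its letters. Rdh9 held 1 E-box, beginning 201 bases before the start, and 1 half-site, 79 bases before it. Rdh16 held a half-site and no E-box, as did the window of the upstream start of Rdh7. The windows of the downstream start of Rdh7, the upstream start of Rdh11 and Rdh12 held neither motif. The window of the downstream start of Rdh11 (minus strand, chr12:79190962-79191211) held 2 E-boxes and 1 half-site. Over the levels, Rdh11 moved with the clock gene Npas2 (r = 0.39) in the direction opposite to Rdh9. After group and replicate number were taken out, r for Rdh11 and Npas2 was 0.20. The window is printed here for that relation over levels, with the matches in capitals.
Rdh11: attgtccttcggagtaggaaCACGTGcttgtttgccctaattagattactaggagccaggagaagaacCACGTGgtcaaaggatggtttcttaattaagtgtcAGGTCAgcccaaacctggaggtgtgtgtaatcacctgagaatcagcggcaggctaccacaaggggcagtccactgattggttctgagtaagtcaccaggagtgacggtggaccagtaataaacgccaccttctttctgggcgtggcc
No D-box letters were found in any of the 7 windows. These matches describe letters only.

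Values were log2 levels from robust multi-array average (RMA), and a difference of 1 on this scale is a 2-fold change. The array medians ran from 5.12 to 5.45. When each array was regressed on the mean of all arrays, the slope, which shows how far bright and dim probes are spread, was 0.772 for Organic-UVR replicate 1, where bright probes read low and dim ones high, and 0.895 to 1.07 for the other 46. The 10 hepatocyte markers measured, among them Apob, Ahsg and Cps1, were above the array median on every array, and 0 of the 4 erythroid markers listed were in the table used here. A transcript was called at a limma adjusted p under 0.1, the false discovery rate of the study's methods. Levels of different genes come from different probes and were not compared with each other.

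Rdh7, Rdh9 and Rdh16 were above the array median on all 47 arrays and Rdh11 on 46. Rdh18-ps and Rdh12 were below it on all 47, so that both were dim signals throughout. The spread over all arrays was small for Rdh7 (SD 0.2, the 11.5th percentile of all transcripts) and large for Rdh9, Rdh16, Rdh11 and Rdh18-ps (SD 0.44 to 0.47, from the 92nd to the 94.2nd percentile).

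**Figure D1:**
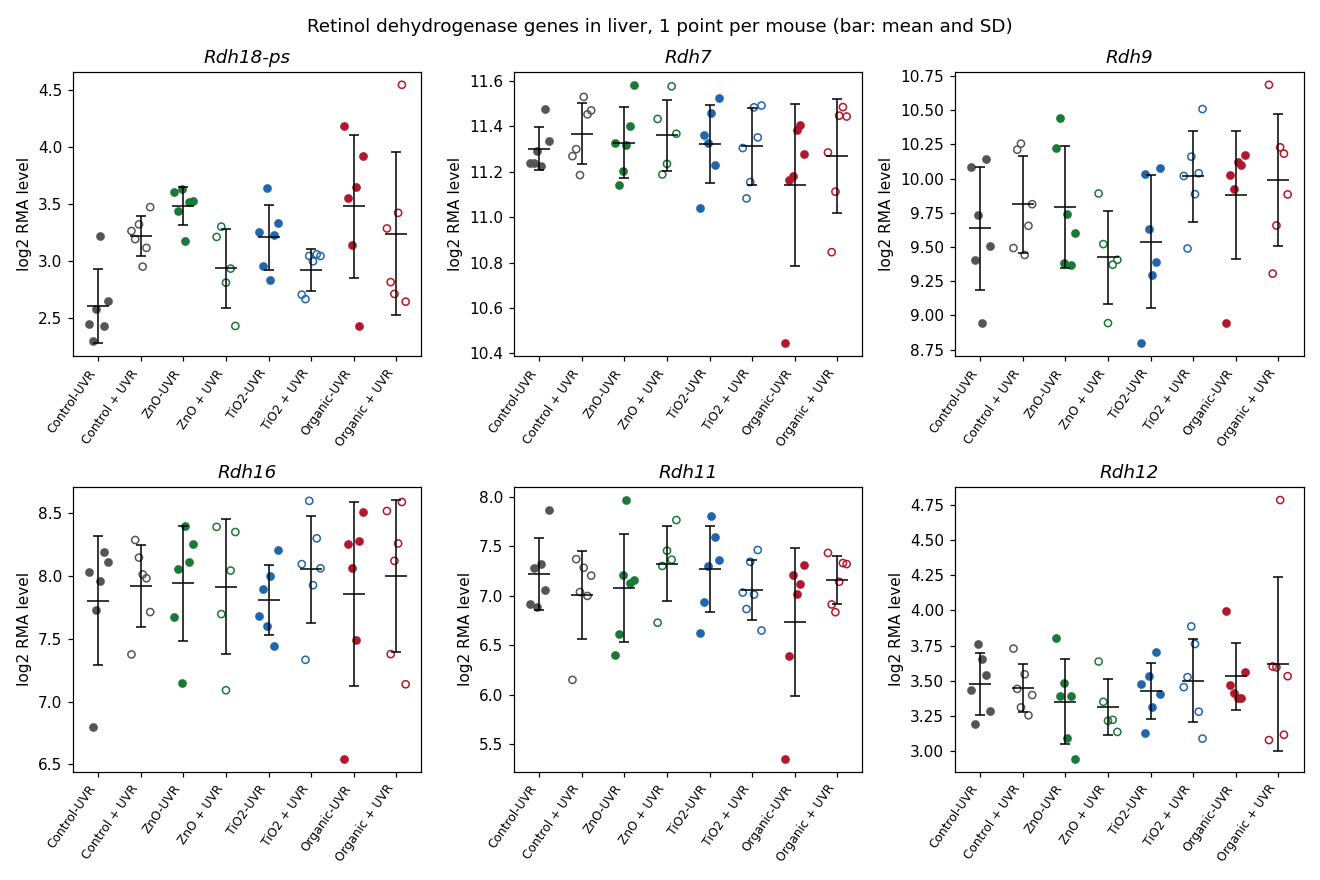
Log2 RMA level of each of the 6 genes (y axis, scale differs between panels) in the 8 groups (x axis), 1 point per mouse, filled without UVR and open with UVR, with the group mean and SD as bars. Control-UVR has the lowest mean for Rdh18-ps, 2.61. Organic-UVR replicate 1 is the lowest point of its group for Rdh7, Rdh9, Rdh16 and Rdh11 and the highest for Rdh18-ps and Rdh12.

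Of the 6 genes, Rdh18-ps alone differed from Control-UVR by the study's threshold, and in Organic-UVR alone. In Control-UVR its levels were 2.30, 2.43, 2.45, 2.58, 2.65 and 3.23, the highest being replicate 4. In Organic-UVR they were 2.43, 3.14, 3.55, 3.65, 3.93 and 4.19, the highest being replicate 1, on whose array dim probes read high. Thus 4 of the 6 Organic-UVR mice lay above every Control-UVR mouse, but 1 (replicate 5) lay among the lowest controls and the groups overlapped. The mean was 2.61 ± 0.33 (SD, n = 6) in Control-UVR and 3.48 ± 0.62 (SD, n = 6) in Organic-UVR, a difference of 0.88 (SE 0.23, 95% confidence interval 0.41 to 1.34, 1.83-fold, limma adjusted p = 0.0407). In this comparison 3.27% of all transcripts were called, and 0.744% were called higher, so that 1 of 6 members is a single call among many.

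The other groups showed where this call sat. In ZnO-UVR, Rdh18-ps ranged from 3.18 to 3.64 with a median of 3.52, and 5 of the 6 mice lay above every Control-UVR mouse. The difference of ZnO-UVR from Control-UVR was 0.88 (SE 0.23), as large as that of Organic-UVR, but it was not called (unadjusted p = 0.000431 and limma adjusted p = 0.9998), in a comparison where 0% of transcripts were called and 1.52% had an unadjusted p under 0.05. The size of the difference was therefore the same in a group where it passed and a group where it did not, and the 2 groups share the Control-UVR mice.

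Rdh18-ps ranged from 2.95 to 3.48 (median 3.23) in Control + UVR and from 2.83 to 3.65 (median 3.24) in TiO2-UVR. The differences from Control-UVR were 0.62 (limma adjusted p = 0.288, with 0.0509% of all transcripts called) and 0.60 (limma adjusted p = 0.968, with 0% called). Organic + UVR ranged from 2.65 to 4.55 with a median of 3.05, the highest value of any mouse being its replicate 5, and differed from Control-UVR by 0.63 (limma adjusted p = 0.162, with 1.65% of all transcripts called), and by 0.32 (limma adjusted p = 0.332) without that mouse. In Control + UVR, TiO2-UVR and TiO2 + UVR, as in ZnO-UVR, 5 of the 6 Control-UVR mice lay below the lowest mouse of the group.

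The 5 ZnO + UVR mice had Rdh18-ps levels of 2.43, 2.81, 2.94, 3.21 and 3.31, and the 6 TiO2 + UVR mice ranged from 2.67 to 3.06 with a median of 3.02. These groups differed from Control-UVR by 0.35 and 0.32, with 95% confidence intervals from -0.14 to 0.83 and from -0.15 to 0.78, and neither was called, where 0% and 0.693% of all transcripts were. All 7 groups thus had a higher mean than Control-UVR, in comparisons that share its 6 mice.

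In descending order, the group means of Rdh18-ps were ZnO-UVR, Organic-UVR, Organic + UVR, Control + UVR, TiO2-UVR, ZnO + UVR, TiO2 + UVR and Control-UVR. No 2 neighbours in that order differed by over 2 standard errors, and the widest step, 0.32 between TiO2 + UVR and Control-UVR, compared with a standard error of 0.23. The limma F test over all groups gave an unadjusted p of 0.00634 and an adjusted p of 0.19, where 1.93% of transcripts were called.

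**Figure D2:**
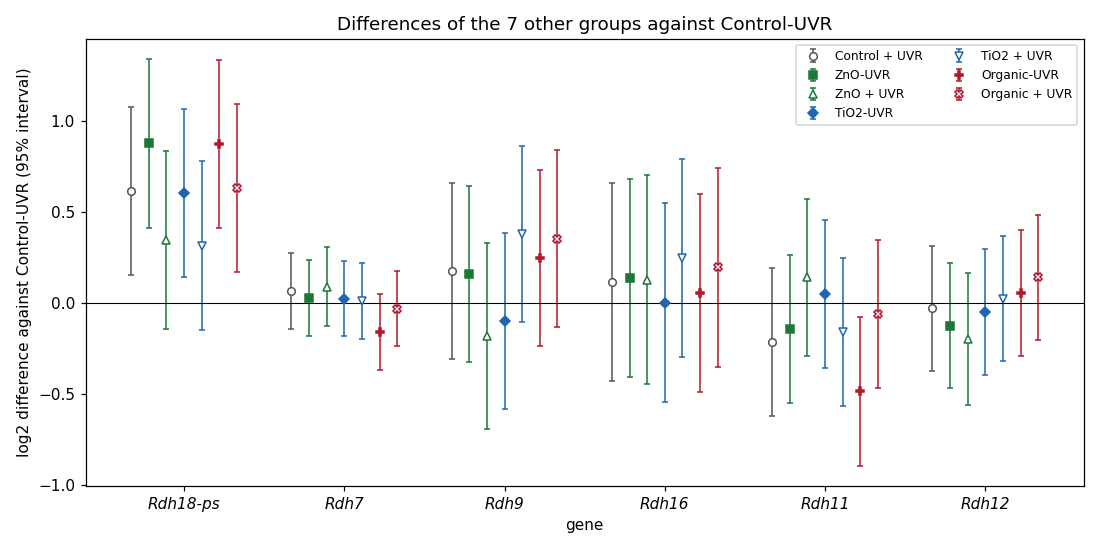
Log2 difference of each of the 7 other groups from Control-UVR (y axis) with 95% confidence intervals from the limma fit, for each gene (x axis), with filled symbols without UVR and open symbols with UVR. The intervals of Rdh18-ps lie above 0 in 5 of the 7 groups and that of Rdh11 lies below 0 in Organic-UVR.

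The effect of UVR on Rdh18-ps was read within each product. It was 0.62 without sunscreen, and under ZnO it was -0.53 (SE 0.24, unadjusted p = 0.0339, limma adjusted p = 0.9998). The difference between those effects was -1.15 for ZnO (SE 0.33, unadjusted p = 0.00134, limma adjusted p = 0.985), -0.90 for TiO2 (limma adjusted p = 0.349) and -0.86 for Organic (limma adjusted p = 0.626). None of the 3 was called, against 0%, 0.173% and 0% of all transcripts. All 3 contain the same Control-UVR and Control + UVR mice, so their common sign is not independent.

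The call for Rdh18-ps in Organic-UVR did not hold in every setting. It was lost with the array slope as a covariate (0.76, limma adjusted p = 0.176), when only the 2 groups compared entered the fit (0.88, limma adjusted p = 0.303) and under a filter on dim transcripts, which removed the gene. The difference was 0.74 (limma adjusted p = 0.217) without Organic-UVR replicate 1, the array of the lowest slope, and it also missed the threshold without Control-UVR replicate 1, 2 or 6 (limma adjusted p = 0.106, 0.109 and 0.103).

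Rdh7, Rdh9 and Rdh16 encode the oxidising enzymes of the chromosome 10 group, which act on retinol and on steroids. None was called in any comparison. For Rdh7 the 8 group means lay within 0.23 of each other, from 11.14 ± 0.36 (SD, n = 6) in Organic-UVR to 11.37 ± 0.14 (SD, n = 6) in Control + UVR. Its difference between Organic-UVR and Control-UVR was -0.16, with a 95% confidence interval from -0.37 to 0.05. In Organic-UVR it ranged from 10.44 to 11.40 with a median of 11.23, and replicate 1 lay far below the other 5, which were at 11.16 or above.

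Rdh9 varied more, from 8.80 in a TiO2-UVR mouse to 10.68 in an Organic + UVR mouse. In Control-UVR it ranged from 8.95 to 10.14 (median 9.62), and in TiO2 + UVR from 9.49 to 10.51 (median 10.03), so that these groups overlapped broadly. The 5 ZnO + UVR values were 8.94, 9.37, 9.41, 9.52 and 9.89, which made this the group of the lowest mean.

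For Rdh9, the means of TiO2 + UVR, Organic + UVR and Organic-UVR were 10.02, 9.99 and 9.88, followed by Control + UVR, ZnO-UVR, Control-UVR and TiO2-UVR, and ZnO + UVR was at 9.43. No neighbouring means differed by over 1 standard error. The difference nearest to the unadjusted threshold was the effect of UVR under TiO2, 0.48 with a 95% confidence interval from -0.0049 to 0.96 (limma adjusted p = 0.75, with 0.652% of all transcripts called). The F test gave a limma adjusted p of 0.678.

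Rdh16 ranged from 6.55 to 8.60 over all mice, and its group means lay between 7.81 in Control-UVR and 8.05 in TiO2 + UVR. Its ranges overlapped between all groups. Its differences from Control-UVR ran from 0.0016 to 0.25 with a standard error of 0.27 to 0.29, and the F test gave a limma adjusted p of 0.989. A difference of the size seen in Rdh18-ps would lie outside the 95% confidence interval of Rdh16 in Organic-UVR, -0.49 to 0.60.

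Rdh11, which encodes a retinaldehyde reductase of photoreceptors and other tissues, had its lowest mean in Organic-UVR. In Control-UVR it ranged from 6.89 to 7.86 (median 7.17) and in Organic-UVR from 5.36 to 7.32 (median 7.07). The medians were close, and 2 of the 6 Organic-UVR mice lay below every control, replicate 1 being the lowest of all 47 mice. The difference was -0.49 (SE 0.2, 95% confidence interval -0.90 to -0.08, unadjusted p = 0.0203, limma adjusted p = 0.186), and it was -0.29 without Organic-UVR replicate 1.

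In Organic + UVR the level of Rdh11 lay between 6.84 and 7.43 (median 7.23). The effect of UVR under Organic was 0.43 (unadjusted p = 0.0402, limma adjusted p = 0.998), and it exceeded the effect without sunscreen by 0.64 (unadjusted p = 0.03, limma adjusted p = 0.655). Both values contain Organic-UVR replicate 1, and without it they were 0.23 and 0.45, and the first was 0.24 without Organic + UVR replicate 1. The highest mean was in ZnO + UVR, 7.32 ± 0.38 (SD, n = 5), where the 5 values were 6.73, 7.30, 7.37, 7.46 and 7.77.

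Rdh12, a retinaldehyde reductase best known from photoreceptors, stayed between 2.95 and 4.78, below the array median throughout. Its group means ran from 3.31 in ZnO + UVR to 3.62 in Organic + UVR, where replicate 4 stood at 4.78 and the other 5 mice at 3.60 or below. No difference from Control-UVR exceeded 0.2 in size, and the F test gave a limma adjusted p of 0.879.

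Across the contrasts that pool groups, none of the 6 genes was called. The mean effect of UVR ran from -0.11 for Rdh18-ps to 0.12 for Rdh16, and 0% of all transcripts were called, with 6.8% at an unadjusted p under 0.05 and 0 of the 6 members among them. The products with organic filters (TiO2 and Organic) against the groups without (Control and ZnO) gave -0.11 for Rdh11 to 0.18 for Rdh9, where 4.94% of all transcripts were called and 19.6% had an unadjusted p under 0.05, again with 0 of the 6 members. The median over the 6 genes was 0.08, beside 0.02 over all transcripts. Against Control + UVR, which asks what a product added to irradiated mice, the 6 genes ran from -0.36 (Rdh9) to 0.35 (Rdh11) in ZnO + UVR, from -0.30 (Rdh18-ps) to 0.21 (Rdh9) in TiO2 + UVR and from -0.10 (Rdh7) to 0.18 (Rdh9) in Organic + UVR. None of these was called or had an unadjusted p under 0.05, where 0%, 0.703% and 0.0611% of all transcripts were called.

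Genes close to the members were looked at for the same comparison. Within 500 kb of the chromosome 10 members, 44 other genes were measured. In Organic-UVR against Control-UVR, 0 of them were called higher and 2 were called lower, beside 2.53% of all transcripts called lower, Prim1, a DNA primase subunit, at -1.01 (limma adjusted p = 0.0144) and Cnpy2 at -0.38 (limma adjusted p = 0.0782). Rdh19, the gene that starts next after Rdh18-ps, stood at 0.16 (limma adjusted p = 0.42), and Rdh16 at 0.05. Of 11 neighbours measured on chromosome 12, 1 was called lower, Plek2, at -0.54 (limma adjusted p = 0.0805).

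**Figure D3:**
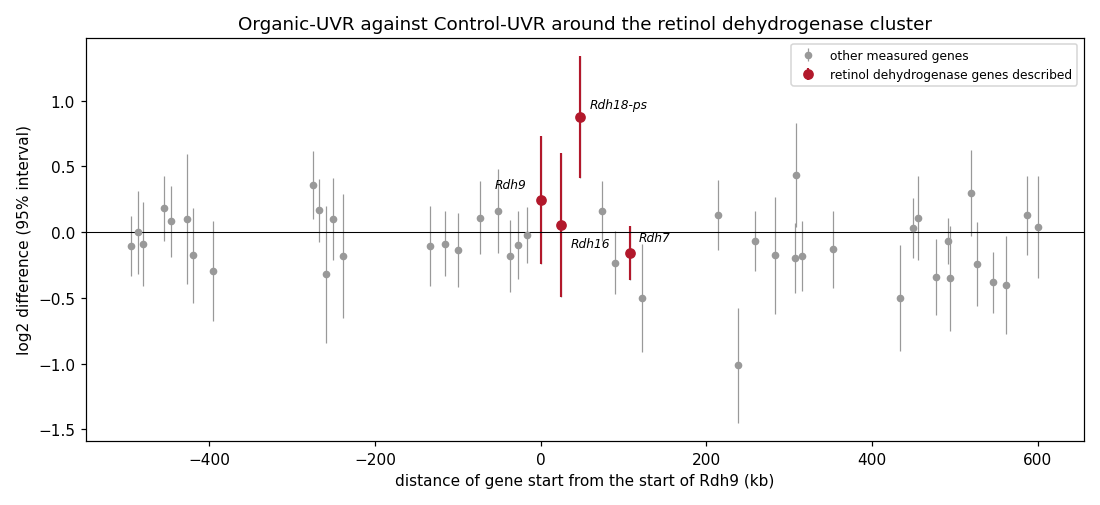
Log2 difference of Organic-UVR from Control-UVR (y axis) with 95% confidence intervals for each measured gene around the chromosome 10 members, placed by the distance of its start from the start of Rdh9 in kb (x axis), with the 4 members in red. Rdh18-ps at 47.8 kb stands at 0.88, and Prim1 at 238.8 kb at -1.01.

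Other enzymes of the pathway were counted from a list of 24 retinoid dehydrogenases and reductases, of which 10 were in the table used here. In Organic-UVR against Control-UVR, 0 of the 10 were called, and their median was -0.25 beside 0.03 over all transcripts. Except for Rdh5 and Rdh19, these genes were above the array median on every array. Organic-UVR replicate 1, where bright probes read low, is included in this median, and its part in it was not tested. Rdh10, a retinol dehydrogenase of the embryo and adult, stood at -0.38 (limma adjusted p = 0.129), Sdr9c7 at -0.50 (limma adjusted p = 0.175) and Dhrs4, a retinaldehyde reductase, at -0.32 (limma adjusted p = 0.216). With the products that hold organic filters against those that do not, 1 of the 10 was called lower, Sdr9c7, at -0.32 (SE 0.1, limma adjusted p = 0.0853), where 3.4% of all transcripts were called lower. Rdh5, an 11-cis retinol dehydrogenase of the eye, stood at -0.18 (limma adjusted p = 0.118).

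Further steps had few measured genes. Of 7 genes for the oxidation of retinaldehyde to retinoic acid, 3 were measured and 0 called in Organic-UVR, where Aldh8a1, an aldehyde dehydrogenase, stood at -0.50 (limma adjusted p = 0.224). Of 13 genes for retinyl esters and carotenoid cleavage, 14 for transport and binding and 7 receptors, 2, 2 and 4 were measured and 0 were called. Rxrg, a retinoid X receptor, had the smallest p of these, at -0.32 (limma adjusted p = 0.135). None of the 4 genes for the clearance of retinoic acid was in the table used here, and Lrat, which esterifies retinol in stellate cells, was not either. Of 4 stellate cell markers measured, 1 was called lower in Organic-UVR, Colec11, at -0.36 (limma adjusted p = 0.0775), and of 3 bile duct markers 1 was called higher, Krt7, at 0.57 (limma adjusted p = 0.00641) with a level below the array median on all 47 arrays. The other bile duct markers were not called, Krt19 at 0.14 (limma adjusted p = 0.494) and Sox9 at -0.27 (limma adjusted p = 0.317). Over all transcripts, 2.53% were called lower and 0.744% higher in this comparison. With the organic-filter products, Sox9 was called lower, at -0.24 (limma adjusted p = 0.0834), where 3.4% of all transcripts were. Krt7 was not called there, at 0.16 (limma adjusted p = 0.11). Of 2 periportal hepatocyte markers measured, 1 was called lower in Organic-UVR, Hal, which encodes histidine ammonia-lyase, at -0.72 (limma adjusted p = 0.0126). Hal was also called lower with the organic-filter products, at -0.46 (limma adjusted p = 0.000296). Against Control-UVR, Hal stood at 0.11 in TiO2-UVR, -0.75 in TiO2 + UVR and -0.40 in Organic + UVR. The periportal level, a mean over Hal and Arg1, ran from 9.92 to 10.93 in Organic-UVR and from 10.68 to 11.17 in Control-UVR. The stellate cell level, a mean over the 4 genes, ran from 6.63 to 6.94 in Organic-UVR and from 6.92 to 7.13 in Control-UVR. The Organic-UVR ranges include its replicate 1, the array of the lowest slope. The part of these markers in the level of any member was not tested.

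Levels of the members were then compared across the 47 mice. Of 15 pairs, 6 passed a permutation test at an adjusted p under 0.1, 5 with a positive and 1 with a negative correlation. Rdh9 and Rdh16 correlated most closely, with Pearson r = 0.56 (permutation p = 5e-05, adjusted p = 0.00075) and Spearman rho = 0.56 (adjusted p = 0.0009). The correlation of Rdh9 and Rdh16 was 0.55 without the 2 mice farthest from the median of Rdh9, 0.62 in the residuals after group and replicate number, 0.51 after the array slope was taken out, and 0.51 without Organic-UVR replicate 1. Both genes lie on chromosome 10, and the probe sequences were not analysed here, so shared binding between close relatives was not tested.

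The other 5 pairs missed the adjusted threshold both without that array and after the array slope was taken out. Rdh7 and Rdh11 had r = 0.52 (permutation p = 0.0012, adjusted p = 0.006) but Spearman rho = 0.27 (adjusted p = 0.162), and r = 0.24 without Organic-UVR replicate 1. Rdh7 and Rdh16 (r = 0.48), Rdh16 and Rdh11 (r = 0.38), Rdh7 and Rdh9 (r = 0.34) and Rdh11 and Rdh12 (r = -0.37) had Spearman adjusted p of 0.162, 0.141, 0.371 and 0.0694, in that order. In the residuals after group and replicate number, r was 0.66 for Rdh7 and Rdh9, above the 0.62 of Rdh9 and Rdh16, and it was 0.45 for Rdh7 and Rdh16, 0.37 for Rdh16 and Rdh11, 0.23 for Rdh7 and Rdh11 and -0.40 for Rdh11 and Rdh12. After the array slope was taken out of the levels, r was 0.26 for Rdh7 and Rdh16, 0.23 for Rdh7 and Rdh9, 0.15 for Rdh7 and Rdh11, 0.02 for Rdh16 and Rdh11 and 0.16 for Rdh11 and Rdh12, the last with its sign turned. Without that array, 1 of the 15 pairs remained, that of Rdh9 and Rdh16. The array slope itself correlated with Rdh11 (r = 0.72), Rdh7 (r = 0.61) and Rdh16 (r = 0.51), which were bright, and inversely with Rdh12 (r = -0.63), which was dim. It also passed at an adjusted p under 0.1 with Rdh18-ps, the other dim member (r = -0.30, permutation adjusted p = 0.0496, Spearman adjusted p = 0.258), and with Rdh9 (r = 0.27, permutation adjusted p = 0.0646, Spearman adjusted p = 0.478). Without the 2 arrays of the most distant slope, r was -0.07 for Rdh18-ps and 0.21 for Rdh9.

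**Figure D4:**
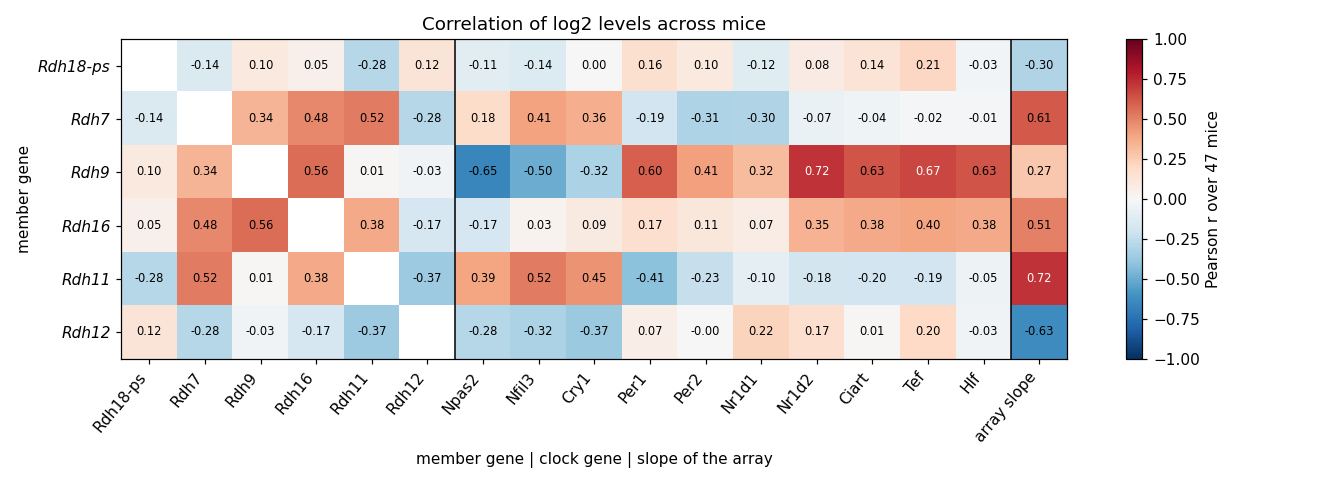
Pearson r of log2 levels over the 47 mice between each of the 6 genes (rows) and the other members, 10 clock genes and the array slope (columns, separated by lines), on a colour scale from -1 to 1. The row of Rdh9 runs from -0.65 with Npas2 to 0.72 with Nr1d2.

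Rdh9 was the member whose level correlated with the most genes of the circadian clock. The clock list held 17 genes, of which 10 were measured, and the 60 pairs of a member and a clock gene were tested as 1 family after the likeness of Rdh9 and Nr1d2 had been seen, so the test is no independent support. All 10 pairs with Rdh9 passed at a permutation adjusted p under 0.1, against 4 for Rdh7, Rdh16 and Rdh11, 2 for Rdh12 and 0 for Rdh18-ps. The sign was positive with 7 clock genes and negative with 3.

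Nr1d2, which encodes the repressor REV-ERB beta, correlated with Rdh9 at r = 0.72 (permutation p = 1e-05, the smallest the resampling can give, adjusted p = 0.00015) and rho = 0.70 (adjusted p = 0.00012). Without the 2 mice farthest from the median of Nr1d2, r was 0.67. In the residuals after group and replicate number, r was 0.77, and after the array slope it was 0.74. Within the 8 groups r ran from 0.41 in TiO2 + UVR to 0.88 in ZnO-UVR, and within the 6 replicate numbers from 0.43 to 0.91, so the relation was present with the same sign in each.

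The clock output factors Tef and Hlf correlated with Rdh9 at r = 0.67 and 0.63, and Ciart and Per1, which encode repressors of the clock, at r = 0.63 and 0.60. Npas2, an activator that pairs with BMAL1, correlated at r = -0.65 (adjusted p = 0.0002, rho = -0.66, r = -0.67 in the residuals), and Nfil3, the repressor that competes at D-boxes, at r = -0.50 (adjusted p = 0.00315). For Rdh9 these 6 genes kept their sign in the residuals and after the array slope was taken out. Across mice, more Nr1d2, Tef and Ciart went with more Rdh9, and more Npas2 with less.

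**Figure D5:**
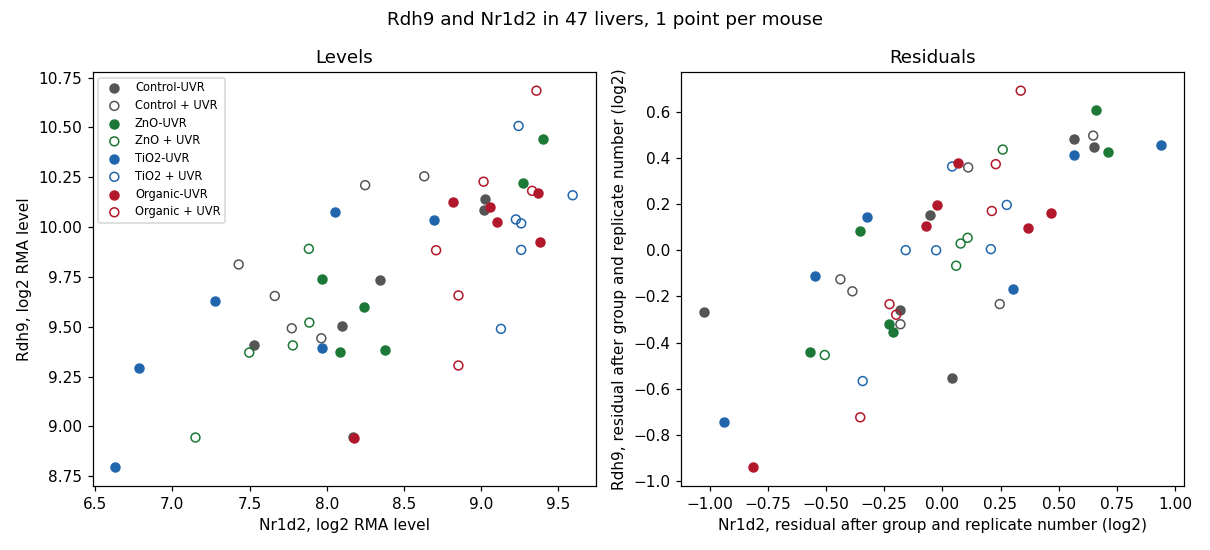
Rdh9 against Nr1d2 over 47 livers, 1 point per mouse, coloured by product and open with UVR, as log2 RMA levels (left) and as residuals after group and replicate number (right). The points rise together in both panels, with r = 0.72 for levels and r = 0.77 for residuals.

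Several of these clock genes differed between groups, whereas Rdh9 was not called. The study's methods do not state the hour of day at which each liver was taken. If that hour differed between groups, its effect on these genes cannot be told apart from the treatment. In the products with organic filters against the groups without, 6 of the 10 clock genes were called higher and 2 lower, beside 1.54% and 3.4% of all transcripts, among them Nr1d2 at 0.59 (SE 0.14, limma adjusted p = 0.0157) and Npas2 at -1.27 (limma adjusted p = 8.51e-05). Rdh9 stood at 0.18 (SE 0.12, 95% confidence interval -0.06 to 0.43, limma adjusted p = 0.401). The organic-filter groups did not all move alike in the clock genes. Against Control-UVR, Nr1d2 stood at -0.80 and Npas2 at 0.59 in TiO2-UVR, with signs opposite to the pooled ones. Neither was called (limma adjusted p = 0.968 for both), where 0% of all transcripts were. In TiO2 + UVR, Organic-UVR and Organic + UVR, Nr1d2 stood at 0.92, 0.62 and 0.66 and Npas2 at -1.53, -1.54 and -1.51.

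Rdh16 correlated with 4 clock genes, Tef (r = 0.40, permutation adjusted p = 0.024), Hlf (r = 0.38), Ciart (r = 0.38) and Nr1d2 (r = 0.35), all with a positive sign. For Rdh16 the residuals after group and replicate number gave larger values, 0.57 with Tef, 0.60 with Hlf, 0.54 with Ciart and 0.54 with Nr1d2. For Rdh7 the residuals gave 0.54 with Hlf, 0.46 with Tef, 0.41 with Nr1d2 and 0.40 with Per1. The 4 pairs of Rdh7 that passed were with Nfil3, Cry1, Per2 and Nr1d1. Their residuals gave -0.08, 0.06, 0.17 and -0.05. Rdh11 correlated with Nfil3 (r = 0.52, permutation adjusted p = 0.000686), Cry1 (r = 0.45) and Npas2 (r = 0.39) and inversely with Per1 (r = -0.41). For Rdh11 the residuals after group and replicate number gave 0.31 with Nfil3, 0.20 with Npas2, 0.19 with Cry1 and 0.03 with Per1, all smaller in size than over the levels. After the array slope was taken out, they were 0.37 with Nfil3, 0.30 with Npas2, 0.17 with Cry1 and -0.44 with Per1.

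Of the 6888 other genes, each taken by its brightest probeset, the 5 whose levels were most like those of Rdh18-ps over the 47 arrays were Rd3, Tssk2, Lpo, Catip and Neil2, with r of 0.53, 0.51, 0.50, 0.49 and 0.48. By residuals after group and replicate number they were Vmn1r210, Snhg16, Tssk2, Hkdc1 and Khdrbs3, with r from 0.50 to 0.56. The likeness of Rdh18-ps was thus weaker than that of the bright members, for which the same search was made after their values had been seen. For Rdh9 the closest were Clmn (r = 0.81), Ttc7b (r = 0.76), Tmtc2 (r = 0.76), Bnip3 (r = 0.73) and Nr1d2 (r = 0.72).

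Rdh16 was most like Ephx2, which encodes soluble epoxide hydrolase (r = 0.80), Slc16a10 (r = 0.80), Lect2 (r = 0.79), Mtarc2 (r = 0.77) and Glul, which encodes glutamine synthetase (r = 0.77). Rdh11 was most like Pygl, the liver glycogen phosphorylase gene (r = 0.87), Copz1 (r = 0.86), Eif3l (r = 0.85), Atic (r = 0.84) and Lman2 (r = 0.83), and in the residuals most like Acly, the ATP citrate lyase gene (r = 0.87), and Lss, the lanosterol synthase gene (r = 0.86). Rdh7 was most like Ndufb9 (r = 0.89), 9530068E07Rik (r = 0.86), Adk (r = 0.85), Gstz1 (r = 0.85) and Spp2 (r = 0.83). In the residuals, its neighbour Rdh16f2 was the third (r = 0.80). The levels of Rdh12 were most like those of Mir539 (r = 0.76), a microRNA gene whose probeset had a mean level of 2.28. These correlations describe 47 arrays that share their scale, and without Organic-UVR replicate 1 the closest gene was the same for Rdh7 (r = 0.81), Rdh9 (r = 0.79), Rdh11 (r = 0.80) and Rdh12 (r = 0.74), and for Rdh16 it was Slc16a10 (r = 0.77).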

How the data were processed

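Liver RNA of 47 mice in 8 groups was hybridised by the authors to Affymetrix Mouse Gene 1.0 ST arrays. The deposited table holds log2 values made with robust multi-array average (RMA) by the authors. The study's methods state that chips ran in 6 batches with 1 chip of each group, and that batch effects were removed. Whether the deposited values include that step is not given in the sources used here. Arrays have no read depth, and their number limits the precision.

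Control probesets were left out, which left 9815 of the 16383 probesets in the table used here. These are fewer than the gene transcripts that the study's methods name for the array. Of these, 7450 had 1 gene symbol, 511 several and 1854 none. Symbols came from the platform annotation and were updated through Entrez identifiers for 7421. The 6 members and all gene lists were chosen with earlier results of these data known. A member's difference was given singly where its unadjusted p was under 0.05 or its adjusted p under 0.1, and the others by range and count.

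limma 3.58.1 in R 4.3.3 was fitted to all 47 arrays with group and replicate number, and p-values were adjusted over the 9815 probesets by Benjamini-Hochberg. The replicate number stood for the batch. Deviations from group means correlated at 0.153 on average between same-numbered arrays of different groups (-0.508 to 0.746 over 161 pairs). Between different numbers the average was -0.0282. The correlation exceeded 0.1 in 103 of the 161 pairs and in 222 of the 805 pairs with different numbers. Same-numbered arrays thus shared some variation on average, but the labels do not say that the number is the batch or pairs the mice. The script was tested on simulated data. Labels call the arrays biological replicates. Correlations used 100000 two-sided permutations (numpy 2.4.6, scipy 1.17.1), adjusted within 15 pairs of members, 6 of a member and the array slope, and 60 of a member and a clock gene. Promoter windows came from RefSeq (GRCm38.p6) and were aligned with Biopython 1.88 in local mode, over the 250 bases before and 50 after each start. The alternatives were no replicate number, only the groups compared, quantile normalization, array weights, the array slope as a covariate, a filter on dim transcripts, a threshold of 0.05, 1 probeset per gene, a trended and robust variance, and leaving out each array. Alternatives for the correlations were chosen after seeing the data.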

Additional observations from a re-analysis of the deposited data

Results flagged for a closer look

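Of 48 sets of a gene and a group, 6 held a mouse far from the others of its group by Dixon's criterion, which chance alone flags in about 1 in 20. Organic-UVR replicate 1, the array with a slope of 0.772, accounted for 3: Rdh7 at 10.44 (the other 5 mice 11.16 to 11.40), Rdh9 at 8.94 (9.92 to 10.17) and Rdh12 at 4.00 (3.38 to 3.57). Rdh16 was 6.80 in Control-UVR replicate 2 (the others 7.73 to 8.19), on an array with a slope of 1.02. Rdh11 was 6.15 in Control + UVR replicate 1 (the others 7.00 to 7.37), with a slope of 0.928. Rdh12 was 4.78 in Organic + UVR replicate 4 (the others 3.08 to 3.60), with a slope of 0.895. The part of the slope in these values was not tested.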

How the results depend on the processing

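No direction of a member's difference reversed under the alternatives run. Of the 6 pairs of correlated members, that of Rdh11 and Rdh12 reversed, from -0.37 to 0.16, with the array slope taken out. The call of Rdh18-ps in Organic-UVR, 1 member called of 6, became 0 called with the array slope as a covariate (difference 0.76, limma adjusted p = 0.176), with only the groups compared (0.88, limma adjusted p = 0.303) and with the filter on dim transcripts, which removed Rdh18-ps and Rdh12 and kept 5609 transcripts. It stood without the replicate block (0.88, limma adjusted p = 0.0728), which changed no other call, and with quantile normalization (0.80, limma adjusted p = 0.0839). Over the 47 arrays left out in turn its difference ran from 0.74 to 1.11 and the count from 0 to 1 called, the 0 being without replicate 1 of the first group or replicate 1, 2 or 6 of Control-UVR. In Organic + UVR the count ran from 0 to 1, the 1 being without Organic + UVR replicate 1 (Rdh18-ps 0.65, limma adjusted p = 0.0986), and the difference of Rdh18-ps there ran from 0.32 to 0.79. For the F test it ran from 0 to 1, the 1 being without replicate 5 of Organic-UVR or of Organic + UVR, and array weights gave 1. The 6 pairs became 1 with quantile normalization, 1 with the array slope taken out, and 1 to 9 as each array was left out, 1 when Organic-UVR replicate 1 was dropped and 9 when Organic + UVR replicate 4 was. The correlation of Rdh9 and Rdh16 ran from 0.51 to 0.59. The cause of these changes was not tested. Each member had 1 probeset, so a second probeset could not be used. Rdh18-ps and Rdh12 gave dim signals, and signal over background limits what these could show.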
